A study of Rattus norvegicus with 12 samples.

Results

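Glucocorticoid hormone action was followed through 10 genes in rat hippocampus, to ask whether housing young rats alone left a stress hormone signature in this tissue. The genes were chosen by symbol, with no cut on a measured value, but with earlier results of these data known. They were the receptors Nr3c1 and Nr3c2, the receptor co-chaperone Fkbp5 and the induced genes Sgk1, Tsc22d3, Errfi1 and Zbtb16. The steroid enzyme Hsd11b1 and the peptide Crh with its receptor Crhr1 completed the 10. Every probe set whose single symbol in the array annotation was one of the 10 was taken. That gave 9 probe sets for 8 genes, of 15923 probe sets and 10411 singly named genes on the array. Crhr1 and Zbtb16 had no such probe set and were not analysed here.

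Rats received KA or PBS on postnatal day 20. The labels leave KA unexplained, and it was read as kainic acid, which activates glutamate receptors and induces seizures. PBS, phosphate-buffered saline, is the vehicle. In PBS_isolated and KA_isolated each rat had a cage to itself for 10 days. PBS_enriched and KA_enriched rats shared large enriched cages, 8 to a cage. The sample labels do not state the order of treatment and isolation, the length of enriched housing or the age at sacrifice. Each of the 4 groups had 3 samples, and each sample was the pooled hippocampi of 3 to 4 animals on 1 array. The n therefore counts pools, and p-values set a difference against the spread between pools, estimated over all 4 groups. Strain, sex, litter, time of day and hormone level are not given in the sources used here. No group had ordinary group housing, so an effect of isolation cannot be told apart from one of enrichment, and a cage effect cannot be told apart from either. The tissue is a mixture of cells, in which fewer cells of a type and less RNA per cell cannot be told apart.

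Corticosterone is the main glucocorticoid of the rat. It enters brain cells and binds the mineralocorticoid receptor, encoded by Nr3c2, with high affinity, and the glucocorticoid receptor, encoded by Nr3c1, with lower affinity, so that the latter fills mainly under stress and at the daily hormone peak. The hippocampus carries both receptors at high density and takes part in shutting down the hormone response. The bound receptors act on response elements in DNA, and genes such as Fkbp5, Sgk1 and Tsc22d3 are standard readouts of that action.

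Arrays were alike: pairs from the same group correlated at 0.9808 to 0.9894 in log2 values, and pairs from different groups at 0.9818 to 0.9905. KA_enriched replicate 3 stood apart, with the lowest mean correlation to the other arrays (0.983) and the highest ratio of 3 prime to 5 prime beta-actin signal (log2 0.856, against 0.361 to 0.639 elsewhere). Where leaving it out turned a direction or moved a value of a named gene most, the value without it is given too. The tissue label was checked against marker genes. All 6 excitatory neuron markers on the array (Camk2a, Wfs1, Fibcd1, Prox1, Calb1 and Neurod2) and all 3 markers of the CA2 field, where Nr3c2 is strong, lay above the filter on low signal. The summed signal of 4 choroid plexus markers, from tissue next to the hippocampus, reached 2904 in 1 PBS_isolated pool and was 853 or less in every pool of the other groups. Of 10 microglial markers 8 lay above the filter, and the summed signal of all 10 ranged from 855 to 924 over PBS_isolated pools, from 1188 to 1434 over KA_isolated pools, from 864 to 1287 over PBS_enriched pools and from 814 to 1232 over KA_enriched pools. The 7 astrocyte markers summed to 10260 to 10870 over KA_isolated pools, 9291 to 10100 over PBS_isolated pools, 9229 to 10070 over PBS_enriched pools and 9396 to 10740 over KA_enriched pools. The 6 excitatory neuron markers summed to 2696 to 2793, 3100 to 3340, 2973 to 3196 and 2786 to 3452 in the same order. Of 9 markers of neighbouring thalamus, striatum and hypothalamus 3 lay above the filter. All 9 summed to 550 to 613, 566 to 586, 613.9 to 630.5 and 603 to 642 in that order. After PBS, interneuron markers were lower in all enriched pools (4306 to 4509, against 4582 to 4658). Endothelial and mural markers were higher in them (710 to 752, against 679 to 708), as were the neighbouring tissue markers given above. Of all tested single probe sets 11.6% did not overlap between housings after PBS, and 10.8% between KA_isolated and PBS_isolated. Such a share was not computed for sums. After KA all these sums overlapped between housings. Their part in the results was not tested.

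The promoters of the induced genes are shown because a receptor bound to DNA is the mechanism the readout relies on. RefSeq (build GRCr8) gave 12 windows, from 250 bases before to 50 after a transcription start, for 6 of the 10 genes: Nr3c1, Fkbp5, Sgk1, Tsc22d3, Crhr1 and Errfi1, several of them with more than 1 start. Nr3c2, Hsd11b1, Crh and Zbtb16 had no window in the source used, so their promoters were not searched. Both strands were searched for the glucocorticoid response core AGAACA, and for the 15-base palindrome of AGAACA, any 3 bases and TGTTCT, with up to 2 mismatches at its 12 fixed positions. That core was in 0 of the 12 windows, against 20.7% of 33469 promoter windows of the same length in all, and the palindrome was in 0 of 12, against 1.87%. The Crhr1 windows overlap each other, and the shares were not matched for G or C content, so no depletion can be read from these counts. A search of 300 bases does not speak to elements farther away. The letters TATAAA, beginning 45 to 15 bases before the start on the sense strand, were in 3 of the 12 windows, against 1.76% of all windows. Sgk1, Tsc22d3 and Errfi1 had 1 such window each. In these the letters began at -33, -44 and -35, and the single Fkbp5 window, with 77% G or C, held none. Of the Sgk1 and Tsc22d3 windows only the 1 holding TATAAA is shown. The windows of Sgk1 at chr1:24804782-24805081 (minus strand), Tsc22d3 at chrX:109009985-109010284 (minus strand), Errfi1 at chr5:166606591-166606890 (plus strand) and Fkbp5 at chr20:6543506-6543805 (minus strand) follow, with TATAAA in capitals.
Sgk1: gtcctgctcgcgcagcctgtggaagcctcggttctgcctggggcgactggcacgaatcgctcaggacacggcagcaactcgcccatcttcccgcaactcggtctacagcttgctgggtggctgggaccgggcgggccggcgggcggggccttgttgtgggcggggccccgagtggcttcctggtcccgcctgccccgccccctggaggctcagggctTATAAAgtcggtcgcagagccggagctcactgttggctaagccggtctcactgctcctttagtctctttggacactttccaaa
Tsc22d3: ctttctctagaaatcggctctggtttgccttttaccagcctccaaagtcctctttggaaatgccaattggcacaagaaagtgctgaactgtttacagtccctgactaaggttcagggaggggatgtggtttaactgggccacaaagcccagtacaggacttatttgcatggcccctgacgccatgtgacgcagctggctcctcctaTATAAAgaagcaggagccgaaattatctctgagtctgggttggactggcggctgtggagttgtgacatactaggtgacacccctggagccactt
Errfi1: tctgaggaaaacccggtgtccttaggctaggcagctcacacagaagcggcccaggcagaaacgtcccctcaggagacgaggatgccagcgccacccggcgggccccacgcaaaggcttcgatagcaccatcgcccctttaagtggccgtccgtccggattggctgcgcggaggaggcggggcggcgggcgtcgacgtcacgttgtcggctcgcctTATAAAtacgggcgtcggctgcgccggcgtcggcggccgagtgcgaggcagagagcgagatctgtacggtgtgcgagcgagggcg
Fkbp5: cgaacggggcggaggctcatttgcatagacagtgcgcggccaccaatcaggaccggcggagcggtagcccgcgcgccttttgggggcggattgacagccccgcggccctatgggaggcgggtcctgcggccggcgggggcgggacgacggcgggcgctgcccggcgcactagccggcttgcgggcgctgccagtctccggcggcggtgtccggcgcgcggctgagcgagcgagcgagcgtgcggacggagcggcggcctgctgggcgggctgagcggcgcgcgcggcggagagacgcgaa

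Across housing, none of the glucocorticoid genes passed the test. Of the 7 probe sets above the filter, 5 were on average higher and 2 lower in enriched than in isolated rats over both treatments, by log2 differences from -0.067 to 0.090 with standard errors of 0.062 to 0.102. The number passing was 0 of 7 (limma, lowest adjusted p = 0.918), and 0 of 7 had an unadjusted p under 0.05. Among all 9520 tested probe sets 0.021% passed and 5.64% had an unadjusted p under 0.05. The median difference was 0.030 for the 7 and 0.0021 for all tested probe sets. Differences are on the scale log2(signal + 17), which understates changes of dim genes. The isolated and enriched pools overlapped in all 7 probe sets, while 0.305% of all tested probe sets did not overlap.

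The glucocorticoid receptor gene Nr3c1 had its PBS_isolated pools at signals of 198, 189 and 159, KA_isolated pools at 172, 150 and 160, PBS_enriched pools at 164, 176 and 173, and KA_enriched pools at 156, 175.5 and 158. The 2 highest pools were both PBS_isolated, and the third of that group lay among the rest. The isolated mean was 171 ± 18.6 (SD, n = 6) and the enriched mean 167 ± 8.98. The difference between enriched and isolated was -0.028 (SE 0.062, limma adjusted p = 0.966), and its 95% interval in fold terms ran from 0.929 to 1.12 for isolated over enriched. A further Nr3c1 probe set lay below the filter at 9.21 to 28.3 and was not tested with the others. It carries the same sequence accession as the first and gave -0.038 (SE 0.14) when all probe sets were fitted.

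Nr3c2, the mineralocorticoid receptor gene, had PBS_isolated pools at 359, 405 and 334, KA_isolated pools at 376, 322 and 319, PBS_enriched pools at 345, 373 and 352, and KA_enriched pools at 424, 429 and 313. The highest 2 pools and the lowest pool were all KA_enriched, and the low one was the array that stood apart. The housing difference was 0.072 (SE 0.083, adjusted p = 0.918). Without KA_enriched replicate 3 it was 0.14 (SE 0.065, adjusted p = 0.679), and within KA rats it moved from 0.18 (SE 0.12, adjusted p = 0.792) to 0.32 (SE 0.096, adjusted p = 0.382). The interaction of KA and housing for Nr3c2 moved from 0.21 to 0.35 (SE 0.13, adjusted p = 0.577), and the KA difference in enriched rats from 0.11 to 0.25 (SE 0.096, adjusted p = 0.704). None of these passed with or without that array.

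Fkbp5 encodes a co-chaperone that lowers the affinity of the glucocorticoid receptor for hormone and is itself induced by it, a short feedback loop. In signal, its PBS_isolated pools stood at 80.85, 93.8 and 110, KA_isolated pools at 95.1, 116 and 120.5, PBS_enriched pools at 123.5, 86.9 and 104, and KA_enriched pools at 102, 105 and 144. The highest pool was again KA_enriched replicate 3, and the other 11 pools ran from 80.85 to 123.5 with all groups overlapping. Enriched minus isolated was 0.090 (SE 0.10, adjusted p = 0.918), and 0.020 (SE 0.093, adjusted p = 0.973) without that array. The fold for isolated over enriched was 0.939 with a 95% interval from 0.807 to 1.09, and without that array its upper end was 1.135.

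Sgk1, a kinase that regulates ion channels and transporters, varied least of the induced genes, with its highest pool 1.26 times its lowest. It had PBS_isolated pools at 339, 299 and 306, KA_isolated pools at 350, 377 and 315, PBS_enriched pools at 343, 367 and 314, and KA_enriched pools at 324, 371 and 336. Each group overlapped each other group. The housing difference was 0.050 (SE 0.064, adjusted p = 0.928), with a fold for isolated over enriched of 0.966 and an interval from 0.878 to 1.06.

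Tsc22d3 encodes GILZ, a leucine zipper protein that carries part of the anti-inflammatory action of glucocorticoids. In signal, its PBS_isolated pools stood at 308, 279 and 269, KA_isolated pools at 237, 278 and 312, PBS_enriched pools at 304, 229 and 283, and KA_enriched pools at 287, 248 and 252. Both the highest and the second lowest pool were KA_isolated. Its mean was higher in isolated rats, 280.5 ± 27.7 (SD, n = 6) against 267 ± 28.5, but the difference of -0.067 (SE 0.082, adjusted p = 0.922) lay within the spread of pools. The interval for isolated over enriched ran from 0.926 to 1.18.

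Errfi1, a feedback inhibitor of the epidermal growth factor receptor, had PBS_isolated pools at 164, 153 and 162, KA_isolated pools at 146, 144 and 163, PBS_enriched pools at 182, 157.5 and 152, and KA_enriched pools at 151, 183 and 125. The enriched pools spread wider than the isolated ones, with SDs of 21.8 and 9.03 over 6 pools each. The lowest value was KA_enriched replicate 3. The housing difference was 0.016 (SE 0.079, adjusted p = 0.989), and 0.078 (SE 0.067, adjusted p = 0.816) without that array.

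Crh, the releasing hormone that is made by scattered hippocampal interneurons as well as by the hypothalamus, was dim. Its signal was 10.4 to 19.5 in the 6 isolated pools and 14.9 to 22.1 in the 6 enriched pools, around the level of 17 that is added before the log. It lay below the filter, and with all probe sets fitted its housing difference was 0.11 (SE 0.077, adjusted p = 0.887). At this signal a change in Crh was hard to measure.

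**Figure D1:**
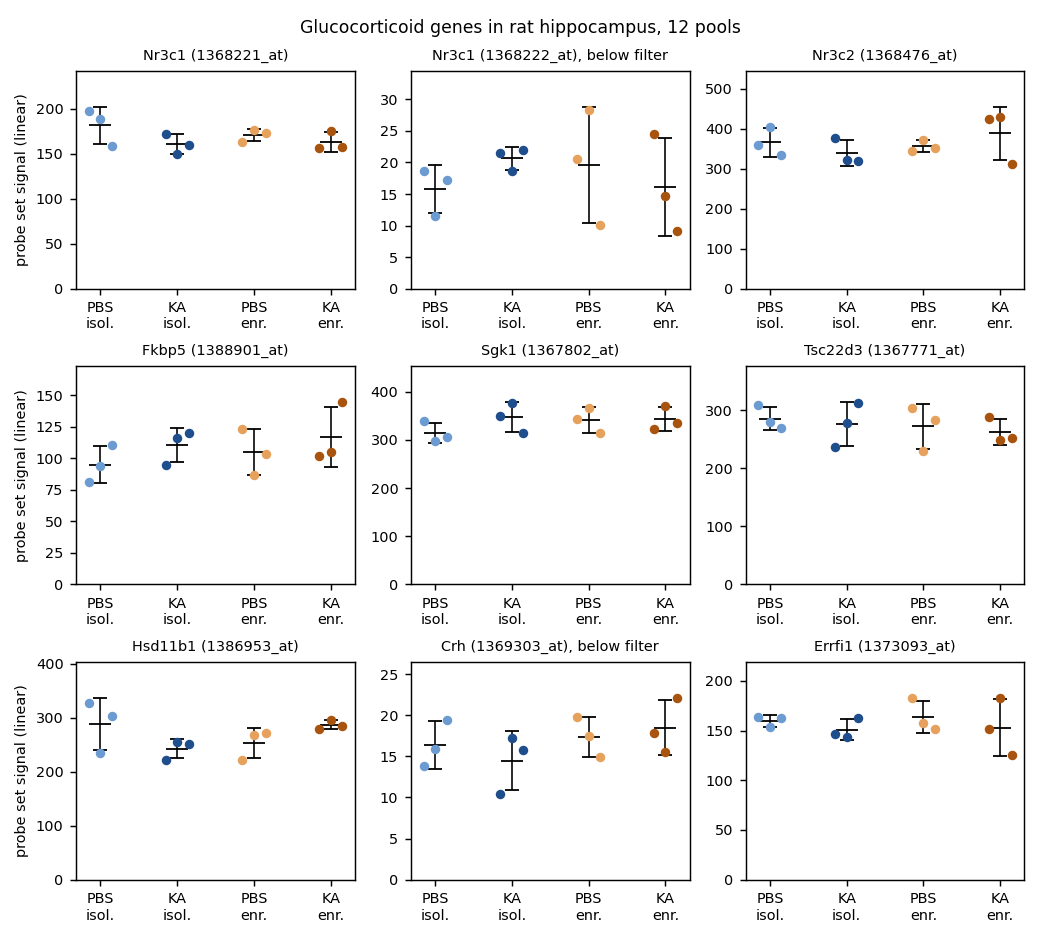
Probe set signal (linear scale, from 0) of the 9 probe sets by group; points are pools, bars the mean and SD of 3 pools. The 4 groups overlap for most genes, KA_enriched Hsd11b1 lies in a narrow band from 279 to 296, and Crh and the second Nr3c1 probe set stay below 30.

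Hsd11b1 passed no test, and its groups did not overlap in 2 comparisons in which 10.8% and 9.62% of all tested probe sets did not overlap either. It encodes the enzyme that turns inactive 11-dehydrocorticosterone back into corticosterone inside cells, and so sets the local hormone level. In signal, its PBS_isolated pools stood at 326.5, 234 and 304, KA_isolated pools at 222, 255 and 251, PBS_enriched pools at 221, 267 and 271, and KA_enriched pools at 279, 296 and 285. All 3 KA_enriched pools lay above all KA_isolated pools and above all PBS_enriched pools, while 2 of the 3 PBS_isolated pools were the highest of all 12. Within KA rats, enriched minus isolated was 0.23 (SE 0.11, unadjusted p = 0.0651, limma adjusted p = 0.733), and within PBS rats -0.17 (SE 0.11, adjusted p = 0.998). Over both treatments these came to 0.030 (SE 0.081, adjusted p = 0.976).

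Seen by treatment, KA minus PBS for Hsd11b1 was -0.22 (SE 0.11, adjusted p = 0.999) in isolated and 0.18 (SE 0.11, adjusted p = 0.936) in enriched rats. The interaction, by how much the KA difference of enriched rats exceeds that of isolated rats, was 0.40 (SE 0.16, 95% interval 0.051 to 0.75). Its unadjusted p was 0.0277 and its limma adjusted p 0.951, so it did not pass over all probe sets. It was the only 1 of 7 with an unadjusted p under 0.05, where 4.97% of all tested probe sets had one, and 0% of them passed. With any 1 pool left out the interaction lay between 0.31 and 0.53. Its unadjusted limma p then ran from 0.00206 without PBS_isolated replicate 2 to 0.0788 without PBS_isolated replicate 1, so it depended on single pools. Without KA_enriched replicate 3 it was 0.40 (adjusted p = 0.643). The microglial marker signal given above was higher in all KA_isolated than in all PBS_isolated pools, whose mean Hsd11b1 signals were 242.5 ± 18.05 and 288 ± 47.9 (SD, n = 3 each), and its part in the result was not tested. Neither was that of the summed excitatory neuron signal, lower in all KA_isolated than in all PBS_isolated pools, or of the astrocyte signal, higher in all of them. Without PBS_isolated replicate 1 or 2 the KA difference of isolated rats was -0.13 or -0.36, and the housing difference after PBS -0.078 or -0.30. Without PBS_enriched replicate 1 the KA difference of enriched rats was 0.086.

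The other comparisons between single groups gave no call among the 7 tested probe sets. After PBS, 3 were higher and 4 lower in enriched rats, from -0.17 to 0.12, with 0 passing (adjusted p 0.998 for each), 0 with an unadjusted p under 0.05 and 0 without overlap. In the same comparison 0.0105% of all tested probe sets passed, 4.21% had an unadjusted p under 0.05 and 11.6% did not overlap. After KA, 5 were higher and 2 lower, from -0.060 to 0.23, with 0 passing, 0 with an unadjusted p under 0.05 and 1, Hsd11b1, without overlap. The shares over all probe sets there were 0%, 7.02% and 10.8%. Without KA_enriched replicate 3 the range was -0.078 for Fkbp5 to 0.32 for Nr3c2.

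Between KA and PBS in isolated rats, 2 of the 7 were higher and 5 lower, from -0.22 for Hsd11b1 to 0.19 for Fkbp5. The 4 induced genes lay on both sides of 0, with Fkbp5 at 0.19 (SE 0.14), Sgk1 at 0.13 (SE 0.090), Tsc22d3 at -0.055 and Errfi1 at -0.076. Nr3c1 had -0.16 (SE 0.088, unadjusted p = 0.0973). In this comparison 0 passed (adjusted p 0.999 for each), 0 had an unadjusted p under 0.05 and 0 did not overlap, against 0.0105%, 4.31% and 10.8% of all tested probe sets. In enriched rats 4 were higher and 3 lower, from -0.10 for Errfi1 to 0.18 for Hsd11b1, with 0 passing, 0 with an unadjusted p under 0.05 and 1, Hsd11b1, without overlap, against 0%, 4.98% and 9.62%. Without KA_enriched replicate 3, Errfi1 in that comparison moved from -0.10 to 0.023 and Fkbp5 from 0.14 to -0.0035, and the range ran from -0.041 for Nr3c1 to 0.25 for Nr3c2. These comparisons share groups with the housing comparisons.

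**Figure D2:**
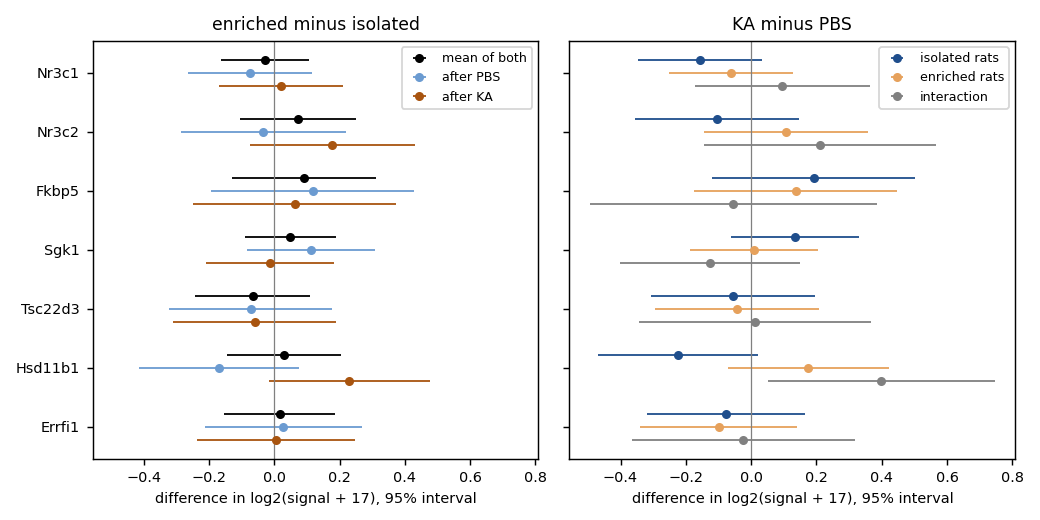
Differences in log2(signal + 17) with 95% intervals from the limma fit over 12 pools, for the 7 tested probe sets: enriched minus isolated (left) and KA minus PBS with the interaction (right). Every interval crosses 0 except the Hsd11b1 interaction, which runs from 0.051 to 0.75 before adjustment.

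The induced genes were also compared with each other among pools. After each group mean was taken off, the 6 pairs among Fkbp5, Sgk1, Tsc22d3 and Errfi1 had Pearson r from -0.396 to 0.317 and Spearman rho from -0.42 to 0.315 over 12 pools. None of the 6 passed, with exact permutation p within groups of 0.298 or more for r and 0.286 or more for rho (adjusted over the 6 pairs, 0.597 and 0.685 or more). Fkbp5 and Sgk1, both direct readouts of receptor action, had r = -0.373 (exact permutation p = 0.298) and rho = -0.315 (exact permutation p = 0.37), and were on the same side of their group mean in 5 of 12 pools. Without the 2 pools farthest from the median of Fkbp5 their r was -0.451. Fkbp5 and Tsc22d3 had r = 0.317 (exact permutation p = 0.382), with 7 of 12 pools on the same side.

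A wider list of genes that glucocorticoids induce in many tissues gave no call either. Of 36 listed genes 31 were on the array and 21 lay above the filter. In the mean housing comparison 8 of the 21 were higher and 13 lower in enriched rats, 0 passed, 2 had an unadjusted p under 0.05, and the median was -0.021. Over all tested probe sets 0.021% passed, 5.64% had an unadjusted p under 0.05 and the median was 0.0021. In the other 5 comparisons 0 of 21 passed as well. The values lay on both sides of 0, and the genes of smallest p are named here.

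Bcl2l1, which encodes the survival protein Bcl-xL, differed by -0.17 between enriched and isolated rats (SE 0.047, unadjusted p = 0.00286, limma adjusted p = 0.683). It had PBS_isolated pools at 124, 134 and 124, KA_isolated pools at 136, 135 and 147, PBS_enriched pools at 121, 117 and 115, and KA_enriched pools at 113, 113.5 and 117. All 6 isolated pools lay above all 6 enriched pools. In the mean housing comparison 0.305% of all tested probe sets did not overlap. Bcl2l1 was named because its p was the smallest in the list. Dusp1, a phosphatase that shuts off MAP kinases and is also an activity-induced gene, went the other way by 0.29 (SE 0.13, adjusted p = 0.852), with isolated pools from 78.9 to 127 and enriched pools from 93.6 to 161. Nfkbia, the NF-kappaB inhibitor, had 0.23 (SE 0.13) and Angptl4, a lipase inhibitor, 0.12 (SE 0.061). Leaving out KA_isolated replicate 3 moved Nfkbia to 0.13, leaving out PBS_isolated replicate 3 moved Angptl4 to 0.075, and leaving out PBS_enriched replicate 2 moved Dusp1 to 0.20.

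The clock gene Per1, which has a glucocorticoid response element and also follows the time of day, had PBS_isolated pools at 70.9, 70.1 and 30.4, KA_isolated pools at 81.7, 65.0 and 66.0, PBS_enriched pools at 26.5, 57.5 and 19.2, and KA_enriched pools at 85.9, 65.4 and 74.0. The 3 lowest pools were all PBS. Its housing difference was -0.24 (SE 0.18, adjusted p = 0.887), or -0.13 without PBS_enriched replicate 3 and -0.39 without PBS_enriched replicate 2, and its KA difference in enriched rats 0.91 (SE 0.25, adjusted p = 0.842). Cebpd, a transcription factor of the acute response, was chosen here after its values were seen. PBS_isolated pools were at 41.6, 43.2 and 58.0, KA_isolated pools at 73.35, 69.98 and 76.0, and the 6 enriched pools from 43.2 to 66.6. KA_isolated thus lay above every other pool. The share of all probe sets with 1 group above all other pools was not counted. Its KA difference in isolated rats was 0.49 (SE 0.13, unadjusted p = 0.00209, adjusted p = 0.854). In that comparison 10.8% of all tested probe sets did not overlap and 4.31% had an unadjusted p under 0.05. Of the 21 listed genes tested 1 had such a p, Cebpd. Enriched minus isolated for Cebpd was -0.13 (SE 0.090, adjusted p = 0.884) over both treatments and 0.13 (SE 0.13) after PBS. After KA it was -0.39 (SE 0.13, limma unadjusted p = 0.00943, adjusted p = 0.63), without overlap. In that comparison 3 of the 21 and 7.02% of all had an unadjusted p under 0.05, and 10.8% of all did not overlap. The interaction was -0.51 (SE 0.18, unadjusted p = 0.0136, adjusted p = 0.919), where 1 of the 21 and 4.97% of all had such a p. The highest summed microglial signal, 1434, was also a KA_isolated pool, and KA_isolated pools had more astrocyte and less excitatory neuron signal than any PBS pool. The part of these marker signals in the Cebpd values was not tested.

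**Figure D3:**
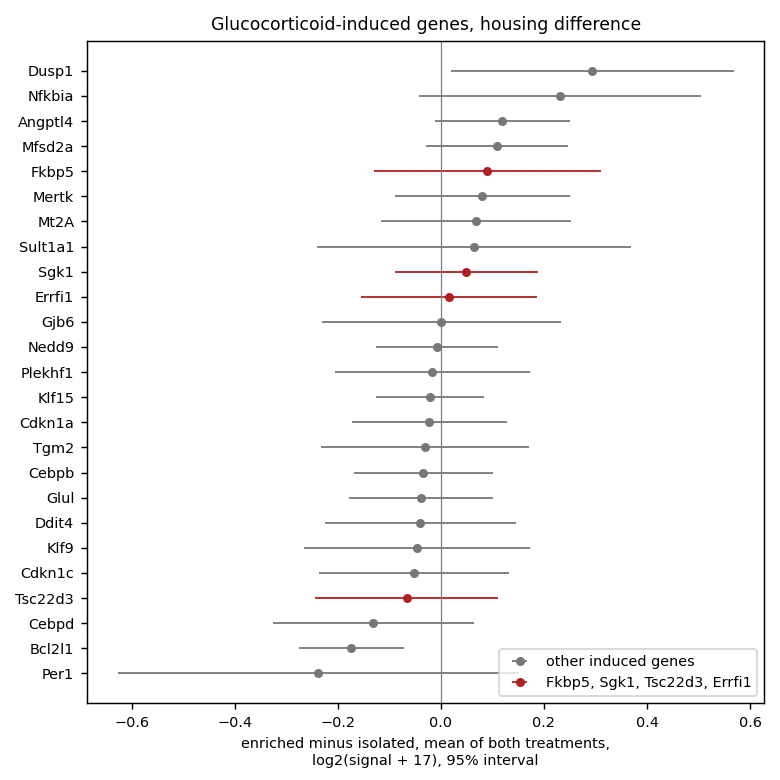
Enriched minus isolated difference (mean of both treatments, log2(signal + 17)) with 95% limma intervals for the 21 listed glucocorticoid-induced genes above the filter (grey) and Fkbp5, Sgk1, Tsc22d3 and Errfi1 (red). The genes lie on both sides of 0, from -0.24 for Per1 to 0.29 for Dusp1, and the intervals of Bcl2l1 and Dusp1 leave out 0 before adjustment.

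Chaperones and cofactors of the receptors were measured for 16 of 22 listed genes. In the mean housing comparison 11 were higher and 5 lower in enriched rats, 0 passed and 0 had an unadjusted p under 0.05, against 0.021% and 5.64% of all tested probe sets. The median was 0.0076 for the 16 and 0.0021 for all. Fkbp4, the co-chaperone that competes with Fkbp5 and favours hormone binding, averaged 315 ± 35.3 over PBS_isolated pools (SD, n = 3 here and for the next values), 317 ± 12.1 over KA_isolated pools, 344 ± 13.8 over PBS_enriched pools and 357.5 ± 47.9 over KA_enriched pools, a difference of 0.14 (SE 0.070, adjusted p = 0.875). Its highest pool was KA_enriched replicate 3, and without it the difference was 0.090 (SE 0.060, adjusted p = 0.765). The Hsp90 assembly factor Stip1 had 0.076 (SE 0.049), the co-chaperone St13 -0.069 (SE 0.056) and the chromatin remodeller Smarca4 -0.071 (SE 0.057). Without 1 PBS_isolated pool these last 2 were as small as -0.046 (replicate 2) and -0.042 (replicate 3). In the other 5 comparisons 0 of 16 passed.

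Of the peptides, receptors and steroid enzymes of the stress axis, 22 of 29 were on the array, and 20 of these lay below the filter, among them Crhbp, Pomc, Avp, Oxt and Hsd11b2. The 2 tested were Adcyap1, which encodes the stress peptide PACAP, and its receptor gene Adcyap1r1. Adcyap1 averaged 116.5 ± 10.8 over PBS_isolated pools (SD, n = 3 here and for the next values), 113 ± 3.10 over KA_isolated pools, 107 ± 6.33 over PBS_enriched pools and 103 ± 5.29 over KA_enriched pools, a housing difference of -0.11 (SE 0.055, adjusted p = 0.875). Adcyap1r1 had 0.021 (SE 0.077, adjusted p = 0.986), which ranged from -0.028 to 0.062 with 1 pool left out. Without KA_enriched replicate 3 it was -0.0093 (SE 0.079, adjusted p = 0.99). In all 6 comparisons 0 of the 2 passed.

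The genes whose pattern over the 12 pools was nearest to a glucocorticoid gene were found by the root mean square difference of standardised log2 values, in which 0 is identity. The nearest to Fkbp5 were Inpp5f (0.447), Kat6b (0.461) and Exog (0.484), and all 3 had their highest signal in KA_enriched replicate 3, as Fkbp5 had. For Nr3c1 they were Commd8 (0.406), Fip1l1 (0.46) and Glrx (0.543), and for Sgk1 Uqcrc2 (0.326), Parp14 (0.47) and Mrpl49 (0.53). Those of Tsc22d3 were Cox7a1 (0.556), Gjb6 (0.564) and Col4a1 (0.565). Gjb6, an astrocyte gap junction gene, is itself on the list of induced genes, and its housing difference was 0.00098. Each is the nearest among all tested probe sets, so a small distance carries no test.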

How the data were processed

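RNA of 12 pooled hippocampus samples was measured on single-colour Affymetrix-type arrays. The authors deposited probe set intensity on a linear scale, which from the values had been scaled to a trimmed mean of 150.03 on each array; how probes were summarised is not stated. No depth applies, and the number of arrays limits the precision. Here 57 control probe sets were left out, and the 60% of the other 15866 with the highest mean log2(signal + 17) were tested (9520), 17 being the 20th percentile of the table. Gene symbols came from the array annotation, in which 12789 probe sets had 1 symbol, 312 several and 2771 other than controls were not listed.

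Groups were compared with limma 3.58.1 in R 4.3.3 in 1 model over all 12 samples without a replicate block, for 6 contrasts. P-values were two-sided, with Benjamini-Hochberg adjustment over all 9520 probe sets and a threshold of 0.05. Errors are SE of that model unless given as SD. Probe sets below the filter were fitted with all probe sets. Co-variation used 1296 exact permutations within groups. Deviations from the group means correlated weakly between samples with the same replicate number (from -0.072 to 0.199). Samples with unlike numbers were not compared in this way. The labels do not name the numbers as pairs, and they were not taken as such.

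The fit was tested on simulated data. Alternatives were the filter, pseudocounts of 1 and 50, equal medians, quantile normalization, only the groups compared, array weights, the replicate block, the beta-actin ratio and each sample left out. The genes, lists and tests were chosen with earlier results of these data known. Named were all probe sets of the 10 genes, and per list the 4 genes of smallest p in the mean housing comparison, with Per1; for Nr3c1, Fkbp5, Sgk1 and Tsc22d3 the 3 nearest genes were named. Cebpd, outside this rule, was chosen after its values were seen.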

Additional observations from a re-analysis of the deposited data

How the results depend on the processing

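The count of glucocorticoid probe sets passing was 0 in each of the 6 comparisons under every alternative run: no filter, pseudocounts of 1 and 50, equal medians, quantile normalization, only the groups compared, array weights, the beta-actin ratio, each pool left out (range 0 to 0), and the replicate number as a block (0 with the replicate block). Of 868 recomputed differences of the 7 probe sets, 0 passed and 51 changed sign, all of them differences that had not passed. The counts over all probe sets in the mean housing comparison were 2 as reported and 1 to 2 otherwise. In KA against PBS in isolated rats they were 1 as reported and 5 with only the groups compared, and after PBS 1 as reported and 2 with array weights or without PBS_isolated replicate 2. After KA they were 0 as reported and 1 without PBS_enriched replicate 3 or KA_enriched replicate 1. The Hsd11b1 interaction was 0.36 to 0.46 over the other settings (0.40, adjusted p = 0.893, with the replicate block). The number of co-variation pairs passing was 0 under all 15 alternatives, while r of Fkbp5 with Errfi1 ranged from -0.476 to 0.433. Dim signal limits Crh and the second Nr3c1 probe set.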
